A study of Mus musculus with 8 samples.

Results

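H1f0 and the other histone genes that cells can transcribe outside S phase were followed through 8 leukaemia libraries. The set holds 10 genes, chosen by symbol from the 52459 gene rows of the deposited count table: the linker histones H1f0, H1fx and Hist1h1c, the H2A variants H2afx, H2afj, H2afz, H2afv and H2afy, and the H3.3 genes H3f3a and H3f3b. H1f0 was put in the set because it had the smallest p of all genes when libraries labelled Tet2-restored were set against PBS knockdown libraries, so its values in those libraries are a description and carry no test. Of the 10 genes, 9 passed the filter on low counts in every comparison, and H1fx did not.

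Each library was made from AE9a+ leukaemic cells out of the spleen of a single moribund animal, AE9a being a shortened RUNX1-RUNX1T1 fusion protein that drives acute myeloid leukaemia. All groups share 1 construct, labelled RTA shTet2: cKit+ marrow cells of C57BL/6J mice carried an AE9a retrovirus with a Tet2 hairpin that doxycycline (DOX) switches on. Recipients were lethally irradiated C57BL/6J mice of 6 to 8 weeks that also received wild-type support marrow, so host and support blood cells may remain in a spleen. Of the secondary recipients, mice 21 and 23 received PBS without DOX and carry the label Tet2 restored. Mice 28 and 30 received ascorbate while DOX went on, and mice 16, 17 and 19, here called PBS knockdown, received PBS while DOX went on. Mouse 12, the only primary recipient, was fed DOX and has no replicate. Withdrawal of DOX and restoration of Tet2 coincide, so their effects cannot be told apart. The labels do not say whether the secondary leukaemias came from 1 primary leukaemia, so p-values measure only the spread between these mice.

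Linker histones sit where DNA enters and leaves the nucleosome and help fold the chromatin fibre. Most histone genes lie in clusters, are transcribed in S phase and give messages that end in a stem-loop without a poly(A) tail. Replacement histones such as H1.0 (from H1f0) and H3.3 come from separate genes with polyadenylated messages and can be deposited at any stage of the cell cycle. H1.0 is known to accumulate in cells that have stopped dividing or have differentiated. These libraries were enriched with oligo-dT beads, so tailless histone messages are sampled poorly. Hist1h1c, which encodes H1.2, lies in a histone cluster, and its message can also occur with a poly(A) tail.

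Promoter sequences of H1f0, a replacement gene, and Hist1h1c, a clustered gene, are shown. Of the set, these genes had the widest gap between labelled restored and PBS knockdown libraries. The lines hold the 250 bases before the RefSeq start (GRCm38.p6), from 5′ to 3′ on the gene's strand, with motif matches in capitals.
H1f0: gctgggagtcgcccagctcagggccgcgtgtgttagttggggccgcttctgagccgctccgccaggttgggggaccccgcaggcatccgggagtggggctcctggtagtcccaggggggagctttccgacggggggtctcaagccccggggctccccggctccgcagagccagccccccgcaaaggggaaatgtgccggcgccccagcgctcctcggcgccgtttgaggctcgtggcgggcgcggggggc
Hist1h1c: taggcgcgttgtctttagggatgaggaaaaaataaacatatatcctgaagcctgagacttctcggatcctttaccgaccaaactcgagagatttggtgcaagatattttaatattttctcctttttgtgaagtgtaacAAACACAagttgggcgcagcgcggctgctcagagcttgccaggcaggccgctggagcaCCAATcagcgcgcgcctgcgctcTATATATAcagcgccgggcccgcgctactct
The windows are chr15:79027962-79028211 for H1f0 and chr13:23738557-23738806 for Hist1h1c, both on the plus strand. Motifs searched on both strands were the H1 box (AAACACA), the CCAAT box, the TATA box core (TATAA), the alternating repeat TATATA and the GC box (GGGCGG). A match of the TATA box core can overlap one of the alternating repeat. The Hist1h1c window held AAACACA starting 112 bases before the start, CCAAT at 54 bases and overlapping TATATA matches at 31 and 29 bases. AAACACA also occurred in the window of a replacement gene, H3f3a, on the reverse strand at 181 bases. Over 27025 mouse promoter windows of the same length, AAACACA was found in 6.22% and TATATA in 5.56%. The CCAAT box was found in 34.5% of all windows, TATAA in 23.5% and GGGCGG in 32.9%. None of the motifs occurred in the H1f0 window, whose GC content was 74.4%, against 50.4% for Hist1h1c and a median of 52% over all windows. These contents depend on the start chosen: the RefSeq start lies 238 bases upstream of the GENCODE vM21 start for H1f0 and 1 base upstream for Hist1h1c. Promoters of 9 of the 10 genes were matched, and H2afx was not. Only the letters were compared, and no binding was measured.

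Library totals ran between 18136978 and 34197877 counts, and mitochondrial genes took 5.16% to 17.1% of them. A level in CPM is a count scaled to the library total after TMM adjustment, and levels of different genes are compared only as FPKM, which corrects for length. The target of the hairpin, Tet2, had 14.1 and 23.1 CPM in labelled restored mice 21 and 23, 13.8 and 11.7 CPM in ascorbate mice 28 and 30, 9.26 CPM in primary mouse 12, and 12.6, 12.8 and 13.4 CPM in PBS knockdown mice 16, 17 and 19. Mouse 23 therefore stood apart, while mouse 21 exceeded the highest PBS knockdown mouse by less than its counting interval of 12.7 to 15.7 CPM (95% Poisson). Runx1t1, the mouse gene of the fusion partner, had 155 and 304 CPM in labelled restored mice and 185 CPM in mouse 12. It had 134 and 130 CPM in ascorbate mice and 101 to 108 CPM in PBS knockdown mice. Kit was between 54.4 and 206 CPM in all 8 libraries. Ptprc (CD45) was low, at 1.72 to 9.72 CPM, and Cd34 was at 19.8 CPM in mouse 12 and at most 2.70 CPM elsewhere. Across all genes, edgeR's quasi-likelihood test (Benjamini-Hochberg adjusted p under 0.05) called 347 of 12137 genes between ascorbate and PBS knockdown mice, which is 2.86%. Of these, 132 were higher (1.09%) and 215 lower (1.77%), or 38% higher, and 21.7% of the calls were higher when library totals alone were used for scaling. Leaving out ascorbate mouse 28 or 30 cut that count to 2 or 7, leaving out PBS knockdown mouse 16, 17 or 19 gave 5, 87 or 15, and leaving out labelled restored mouse 21 or 23 gave 796 or 763. For labelled restored against PBS knockdown mice the test called 0 genes (0%), with 3549 at an unadjusted p under 0.05, and DESeq2 called 1877. Between mouse 12 and PBS knockdown mice it called 15 of 13024 genes (0.115%, with 0.0691% higher and 0.0461% lower), and 1 of 12137 genes (0.00824%) separated labelled restored from ascorbate mice.

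H1f0 (chr15:79028450-79030504, plus strand, GRCm38, 1 exon in GENCODE vM21) had the widest range of the 9 genes, with 7.45 times between its highest and lowest library. It had 168 and 275 CPM in labelled restored mice 21 and 23, 38.9 and 36.9 CPM in ascorbate mice 28 and 30, 162 CPM in primary mouse 12, and 53.7, 68.7 and 65.6 CPM in PBS knockdown mice 16, 17 and 19. The labelled restored and primary libraries were high, the PBS knockdown libraries lay lower, the ascorbate libraries were lowest, and no 2 secondary groups overlapped. Group means were 222 ± 75.7 CPM in labelled restored mice (SD, n = 2), 37.9 ± 1.37 CPM in ascorbate mice (SD, n = 2) and 62.6 ± 7.94 CPM in PBS knockdown mice (SD, n = 3). The H1f0 reads numbered 636 to 5703 per library, so counting error was small beside these gaps. Of its exonic bases, 163 are shared with the antisense gene Gm49544. In bulk RNA, more cells that carry a transcript and more transcript per cell cannot be told apart.

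**Figure D1:**
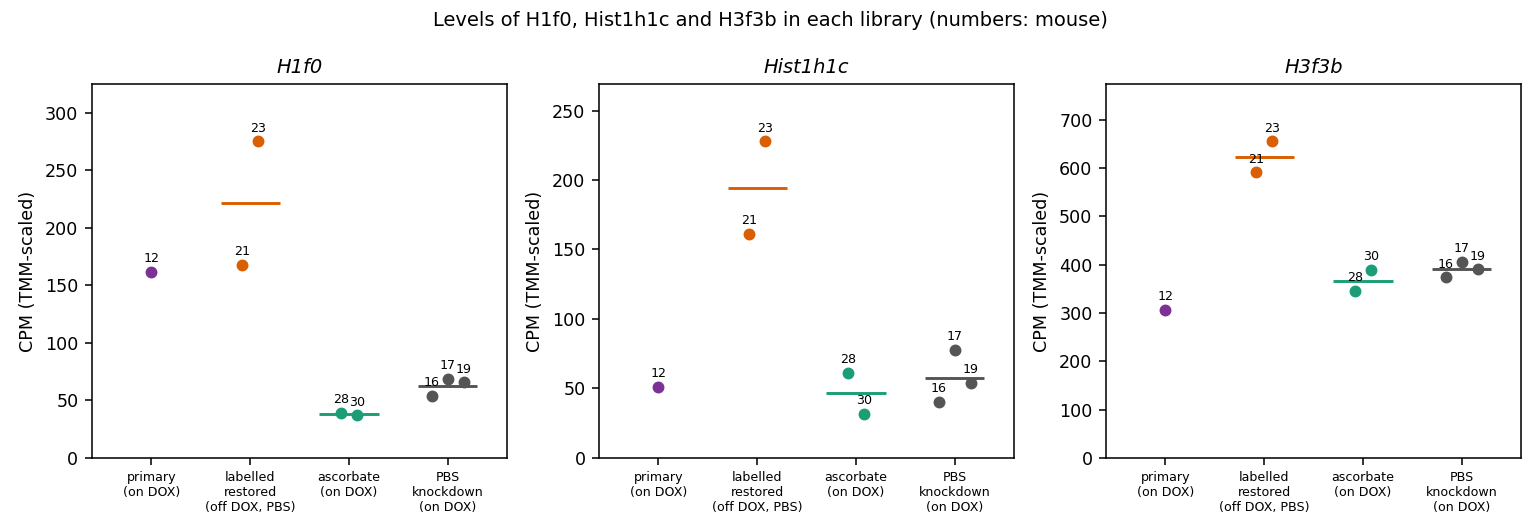
CPM of H1f0, Hist1h1c and H3f3b in each library (1 point a mouse, numbered) in primary, labelled restored, ascorbate and PBS knockdown mice, with the group mean as a line. H1f0 was at 162 CPM in the primary mouse, 168 and 275 CPM in labelled restored mice and under 70 CPM in the other libraries, whereas Hist1h1c and H3f3b were high in labelled restored mice only.

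Between labelled restored and PBS knockdown mice, the comparison that chose it, H1f0 had a fitted log2 fold change of 1.82 (SE 0.213), or 3.54-fold, given here without a test. This value was 1.42 without mouse 23 and 2.14 without mouse 21. Between ascorbate and PBS knockdown mice H1f0 was 0.601-fold, a log2 fold change of -0.73 (SE 0.222), with an adjusted p of 0.0974 in edgeR, so it did not pass. All 3 PBS knockdown mice of this comparison also served the choice of the gene. Some alternative fits called more than the 2.86% of all genes called in the main fit. The share was 11.3% with DESeq2, 6.59% with no filter on low counts and 7.22% with only these groups. In them H1f0 had log2 fold changes of -0.73, -0.75 and -0.72. H1f0 did pass with DESeq2 (adjusted p 0.027), with no filter on low counts (0.00522) and with only these groups in the fit (0.0422), and leaving out mouse 21 or mouse 23 also gave a call. Leaving out each library in turn gave log2 fold changes of -0.83 to -0.67 and adjusted p-values of 0.0386 to 0.331. The direct difference between labelled restored and ascorbate mice was a log2 fold change of 2.56 (SE 0.25), 5.88-fold. H1f0 was the 1 gene called in that comparison, which uses the libraries that chose it. Without mouse 17, 28 or 30, or with only the 4 libraries compared, edgeR no longer called it. Primary mouse 12 had a log2 fold change of 1.37 (SE 0.252), 2.59-fold over PBS knockdown mice, with an adjusted p of 0.112 in edgeR, rank 35 of 13024 by p. DESeq2 and edgeR with no filter on low counts did call it, where they called 1.93% and 1.99% of all genes. This rests on 1 primary library and on the 3 PBS knockdown libraries that also served the choice of the gene.

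Hist1h1c (chr13:23738808-23740367, plus strand, 1 exon), the clustered gene for H1.2, had 161 and 228 CPM in labelled restored mice, 61.0 and 31.8 CPM in ascorbate mice, 51.2 CPM in primary mouse 12, and 40.1, 77.6 and 54.0 CPM in PBS knockdown mice. It was high in both labelled restored libraries and overlapped among all the others. Its fitted difference between labelled restored and PBS knockdown mice was a log2 fold change of 1.77 (SE 0.324), 3.4-fold. Against ascorbate mice, labelled restored mice had a log2 fold change of 2.08 (SE 0.374), with an adjusted p of 0.0939 in edgeR, which did not pass. Ascorbate mice differed from PBS knockdown mice by a log2 fold change of -0.31 (SE 0.333, edgeR adjusted p 0.588), and this became 0.077 without mouse 30. Primary mouse 12, where H1f0 was high, differed from PBS knockdown mice by -0.16 for Hist1h1c (log2 fold change, SE 0.429, edgeR adjusted p 0.932).

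Among linker histones, H1f0 and Hist1h1c gave most of the signal per length. H1f0 had 71.35 and 119.2 FPKM in labelled restored mice, 16.78 and 15.89 FPKM in ascorbate mice, 71.1 FPKM in mouse 12 and 23.35 to 29.67 FPKM in PBS knockdown mice. Hist1h1c had 100.45 and 144.66 FPKM in labelled restored mice, 38.6 and 20.08 FPKM in ascorbate mice, 32.92 FPKM in mouse 12 and 25.6 to 49.11 FPKM in PBS knockdown mice. The clustered genes Hist1h1a, Hist1h1b, Hist1h1d and Hist1h1e stayed between 0.23 and 4.5 FPKM in all 8 libraries. The germ-cell linker histones H1foo, H1fnt and Hils1 had 0 counts throughout. The ratio of H1f0 to Hist1h1c in FPKM was 0.71 and 0.824 in labelled restored mice, 0.435 and 0.791 in ascorbate mice, 2.16 in mouse 12, and 0.912, 0.604 and 0.828 in PBS knockdown mice. Labelled restored mice thus overlapped PBS knockdown mice in this ratio while both genes stood higher, and mouse 12 lay above all secondary libraries. H1f0 made up 39.7% and 44.3% of summed linker histone FPKM in labelled restored mice, 27.4% and 35.8% in ascorbate mice, 61.6% in mouse 12 and 34.6% to 44.6% in PBS knockdown mice. The length behind the deposited FPKM of H1f0 was 2287 bases, against 2055 bases in GENCODE vM21. A longer length lowers the FPKM of H1f0 relative to other genes but not its differences between libraries.

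**Figure D2:**
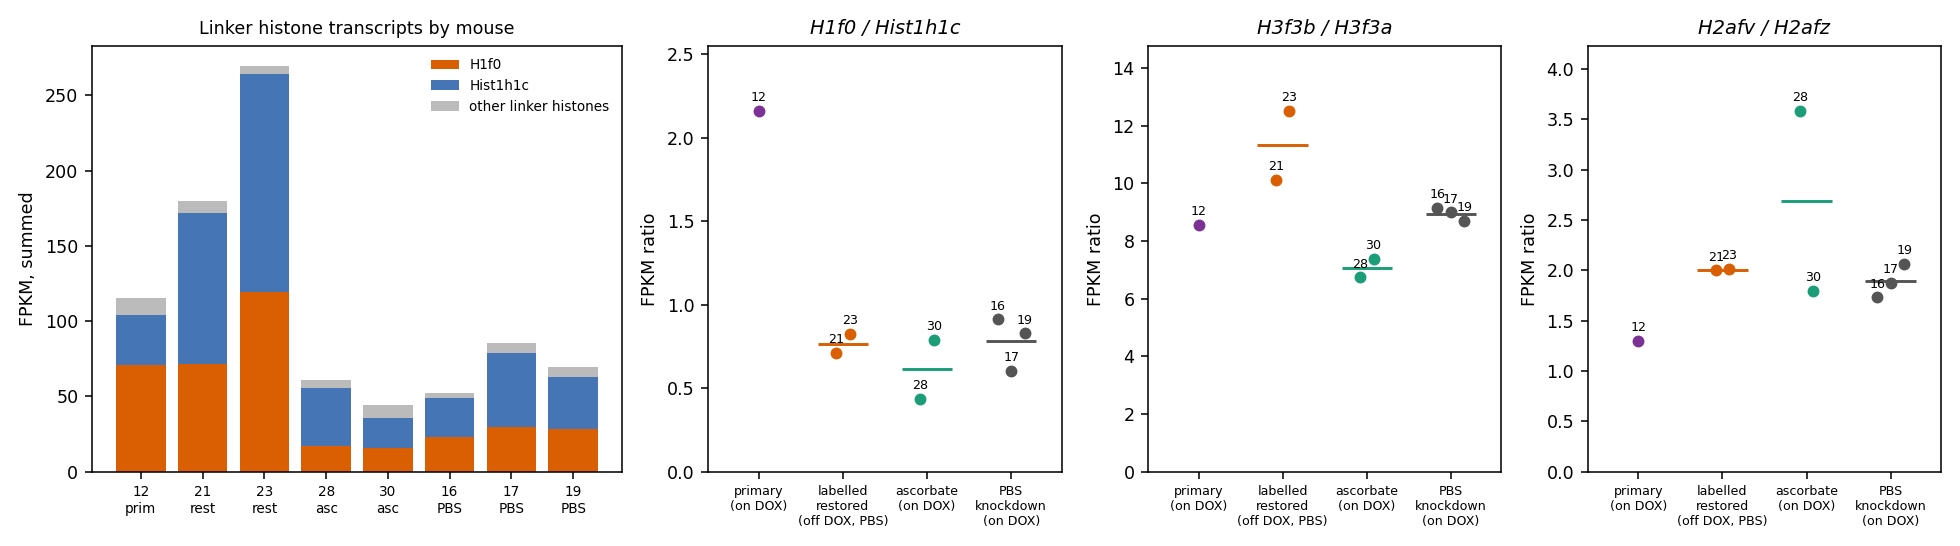
Left, summed FPKM of linker histone genes by mouse (prim, primary; rest, labelled restored; asc, ascorbate; PBS, PBS knockdown); right, ratios of FPKM within 3 gene pairs (1 point a mouse, line at the group mean). The H1f0 to Hist1h1c ratio was 2.16 in mouse 12 and at most 0.912 elsewhere, and the H3f3b to H3f3a ratio was 10.1 and 12.5 in labelled restored mice, 6.74 and 7.38 in ascorbate mice and 8.70 to 9.16 in PBS knockdown mice.

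H1fx (chr6:87980421-87981637, minus strand), the separate gene for the linker histone H1.X, was close to absent. It had 0 counts in both labelled restored mice, 2 and 0 counts in ascorbate mice 28 and 30, 1 count in mouse 12 and 0 counts in all 3 PBS knockdown mice. In the libraries without a count, 3 counts would correspond to 0.108 to 0.152 CPM. Of its 1217 exonic bases, 213 are shared with the antisense gene Gm5577, which also had 0 counts in all 8 libraries.

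H2afx (chr9:44334694-44336077, plus strand) encodes H2A.X, the H2A form that is phosphorylated around DNA breaks, and had the highest mean of the 10 genes at 220 FPKM. It had 457 and 224 CPM in labelled restored mice 21 and 23, 272 and 283 CPM in ascorbate mice, 240 CPM in mouse 12, and 257, 397 and 341 CPM in PBS knockdown mice. The labelled restored mice held both the highest and the lowest library, so the groups overlapped. Labelled restored mice differed from PBS knockdown mice by 0.036 (log2 fold change, SE 0.279), and ascorbate mice by -0.27 (SE 0.282, with 0.588 as the adjusted p in edgeR). H2afj (chr6:136808244-136810074, plus strand) encodes H2A.J, a variant known to build up in senescent human fibroblasts. It had 76.8 and 69.8 CPM in labelled restored mice, 77.6 and 72.8 CPM in ascorbate mice, 47.0 CPM in mouse 12, and 46.7, 79.1 and 58.8 CPM in PBS knockdown mice. Mouse 17 of the PBS knockdown group was the highest of all, and no tested comparison passed (edgeR adjusted p 0.438 for ascorbate, 0.967 for labelled restored against ascorbate, 0.714 for the primary mouse).

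H2afz and H2afv encode H2A.Z.1 and H2A.Z.2, near-identical variants placed at promoters by the SRCAP and p400-TIP60 remodellers. H2afz (chr3:137864487-137866922, plus strand, 3 exon blocks) had 56.1 and 52.5 CPM in labelled restored mice, 34.2 and 47.8 CPM in ascorbate mice, 49.2 CPM in mouse 12, and 43.6, 47.2 and 39.3 CPM in PBS knockdown mice. The labelled restored libraries lay above both other secondary groups, by 0.41 over ascorbate mice (log2 fold change, SE 0.205, 0.35 as the adjusted p in edgeR). H2afv (chr11:6427229-6444443, minus strand, 5 exon blocks) had 103 and 97.3 CPM in labelled restored mice, 113 and 78.9 CPM in ascorbate mice, 58.8 CPM in mouse 12, and 69.4, 81.5 and 74.7 CPM in PBS knockdown mice. Ascorbate mouse 28 had the highest H2afv and the lowest H2afz of all libraries. The ratio of H2afv to H2afz in FPKM was therefore 3.58 in mouse 28 and 1.79 in mouse 30, while it was 1.999 and 2.014 in labelled restored mice, 1.30 in mouse 12 and 1.73 to 2.07 in PBS knockdown mice. Mouse 28 also had the smallest total and the largest mitochondrial share, and their part in this ratio was not tested.

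H2afy (chr13:56073619-56136361, minus strand, 13 exon blocks) encodes macroH2A1, a large H2A variant with a macrodomain that is found on silenced chromatin. It had 157 and 161 CPM in labelled restored mice, 161 and 126 CPM in ascorbate mice, 140 CPM in mouse 12, and 94.5, 115 and 108 CPM in PBS knockdown mice. The PBS knockdown libraries were the lowest, and each other group lay above them. The log2 fold change of ascorbate against PBS knockdown mice was 0.43 (SE 0.159), with an adjusted p of 0.149 in edgeR, and that of mouse 12 was 0.40 (SE 0.2, adjusted p 0.595 in edgeR). Labelled restored mice had 0.58 (SE 0.158) against PBS knockdown mice and 0.16 (SE 0.175, edgeR adjusted p 0.703) against ascorbate mice. Of the exonic bases of H2afy, 501 are shared with the antisense gene Gm47071, and H2afx and H2afj each share 141 with a miRNA gene. The macroH2A2 gene H2afy2 had 0 CPM in every labelled restored, primary and PBS knockdown library.

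**Figure D3:**
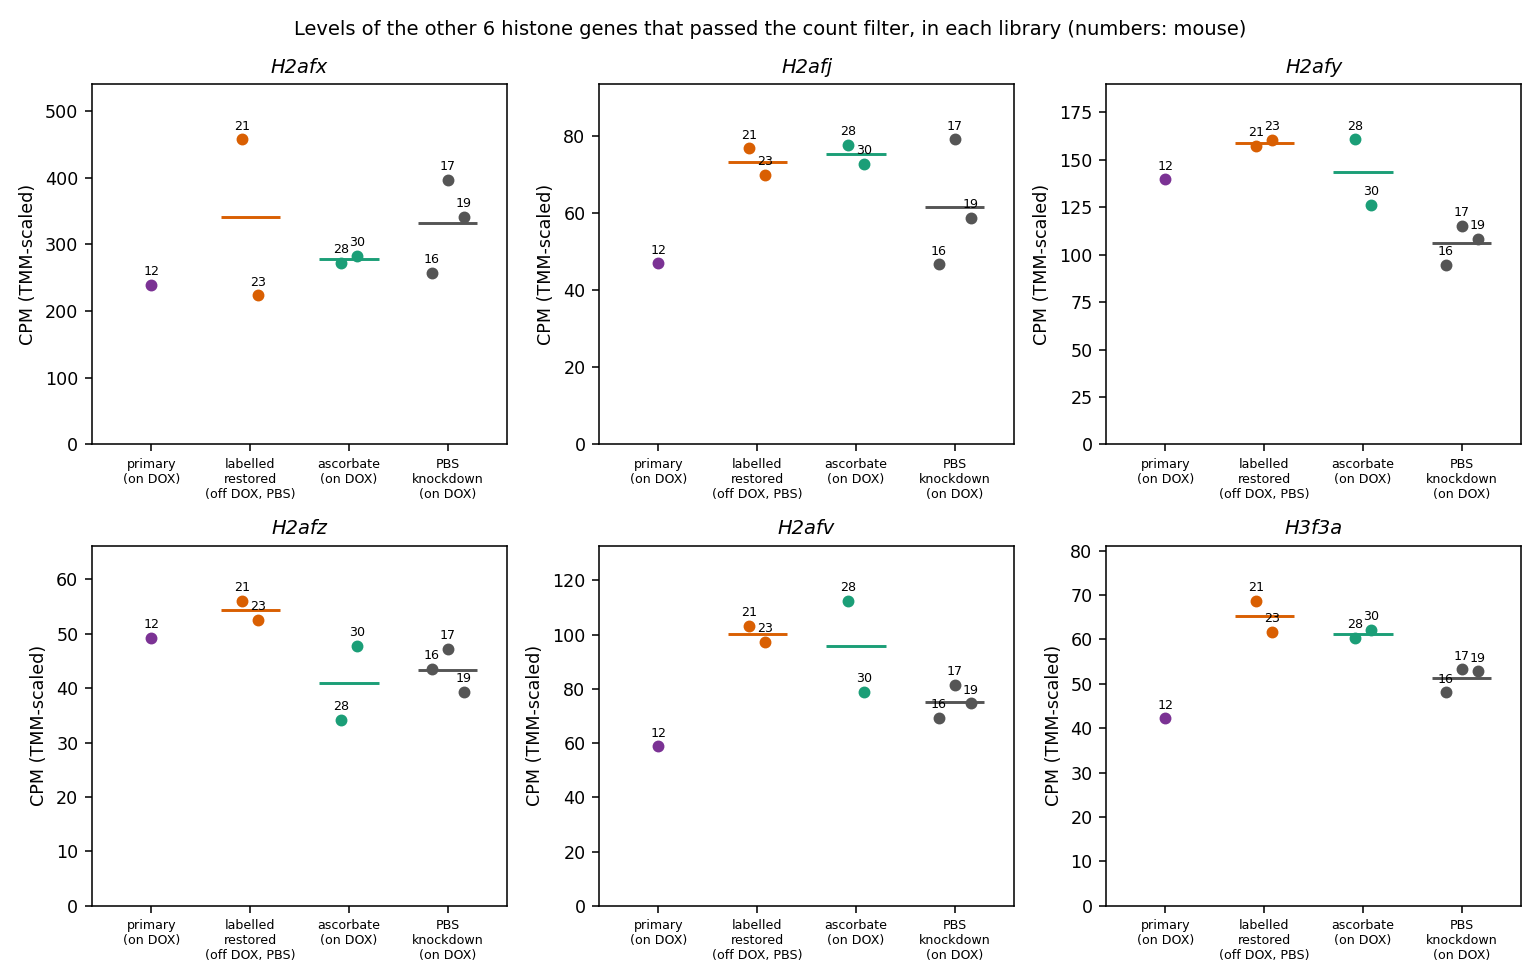
CPM of H2afx, H2afj, H2afy, H2afz, H2afv and H3f3a in each library (1 point a mouse, numbered), with the group mean as a line, in primary, labelled restored, ascorbate and PBS knockdown mice. H2afy lay at 126 to 161 CPM outside the PBS knockdown group and at 94.5 to 115 CPM in it, whereas H2afx and H2afj overlapped between the secondary groups.

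H3f3a and H3f3b encode the same H3.3 protein, the replacement H3 that HIRA places in active genes and DAXX with ATRX place in heterochromatin. H3f3b (chr11:116021912-116027962, minus strand, 4 exon blocks) had 591 and 655 CPM in labelled restored mice, 345 and 389 CPM in ascorbate mice, 307 CPM in mouse 12, and 374, 407 and 390 CPM in PBS knockdown mice. The labelled restored libraries were high, the other secondary libraries overlapped, and mouse 12 was lowest. Labelled restored against PBS knockdown mice gave a log2 fold change of 0.68 (SE 0.134), 1.6-fold, and against ascorbate mice 0.77 (SE 0.149), with an adjusted p of 0.0996 in edgeR that did not pass. The ascorbate and primary differences from PBS knockdown mice were -0.097 (log2, SE 0.136, edgeR adjusted p 0.686) and -0.35 (log2, SE 0.177, edgeR adjusted p 0.601). H3f3a (chr1:180800832-180813943, minus strand, 6 exon blocks) had 68.7 and 61.7 CPM in labelled restored mice, 60.3 and 62.1 CPM in ascorbate mice, 42.2 CPM in mouse 12, and 48.0, 53.3 and 52.8 CPM in PBS knockdown mice. Both the labelled restored and the ascorbate group lay above the PBS knockdown group, with a log2 fold change of 0.24 (SE 0.149, edgeR adjusted p 0.348) for ascorbate. Per length H3f3b was the more abundant gene in every library, at 10.1 and 12.5 times H3f3a in labelled restored mice, 6.74 and 7.38 times in ascorbate mice, 8.57 times in mouse 12 and 8.70 to 9.16 times in PBS knockdown mice. The 3 secondary groups did not overlap in this ratio. Of the exonic bases of H3f3a, 22.8% are shared with genes on the opposite strand, and the strand setting of the counts is not given in the sources used here.

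As a group, all 9 tested genes had positive log2 fold changes between labelled restored and PBS knockdown mice, where 49.8% of all genes did, and their median was 0.41 against -0.0020 for all genes. H2afx was close to 0 there, at 0.036 (SE 0.279), and became -0.56 without mouse 21. In 7 of the 9 the labelled restored libraries lay above all PBS knockdown libraries, against 24.9% of all genes. These counts belong to the comparison that chose H1f0 and are given as a description. Between ascorbate and PBS knockdown mice 0 of 9 passed in edgeR, and 2 had an unadjusted p under 0.05 (H1f0 and H2afy), against 23.6% of all genes. DESeq2 called 1 of 9, against 11.3% of all genes it tested. There H2afy and H3f3a did not overlap and were higher (2 of 9, against 22.4% of all genes), and H1f0 did not overlap and was lower (1 of 9, against 23.5%). Positive values were found in 4 of 9, against 49.0% of all genes, and the median was -0.087 against -0.012 for all genes. Between labelled restored and ascorbate mice the 1 called gene was H1f0, which its choice from these libraries keeps from being a test, and 4 of 9 did not overlap and were higher (H1f0, Hist1h1c, H2afz and H3f3b), against 22.8% of all genes, while 8 of 9 were positive, against 51.4%. Between mouse 12 and PBS knockdown mice 0 of 9 passed in edgeR, and 1 had an unadjusted p under 0.05 (H1f0) where 9.08% of all genes did. DESeq2 called 1 of 9, against 1.93% of all genes it tested. Mouse 12 lay above all PBS knockdown mice in 3 of 9 (31.8% of all genes) and below them in 4 of 9 (29.7%), and 3 of 9 were positive, against 48.8%. The comparisons with PBS knockdown mice share those 3 libraries, so their values are not independent.

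**Figure D4:**
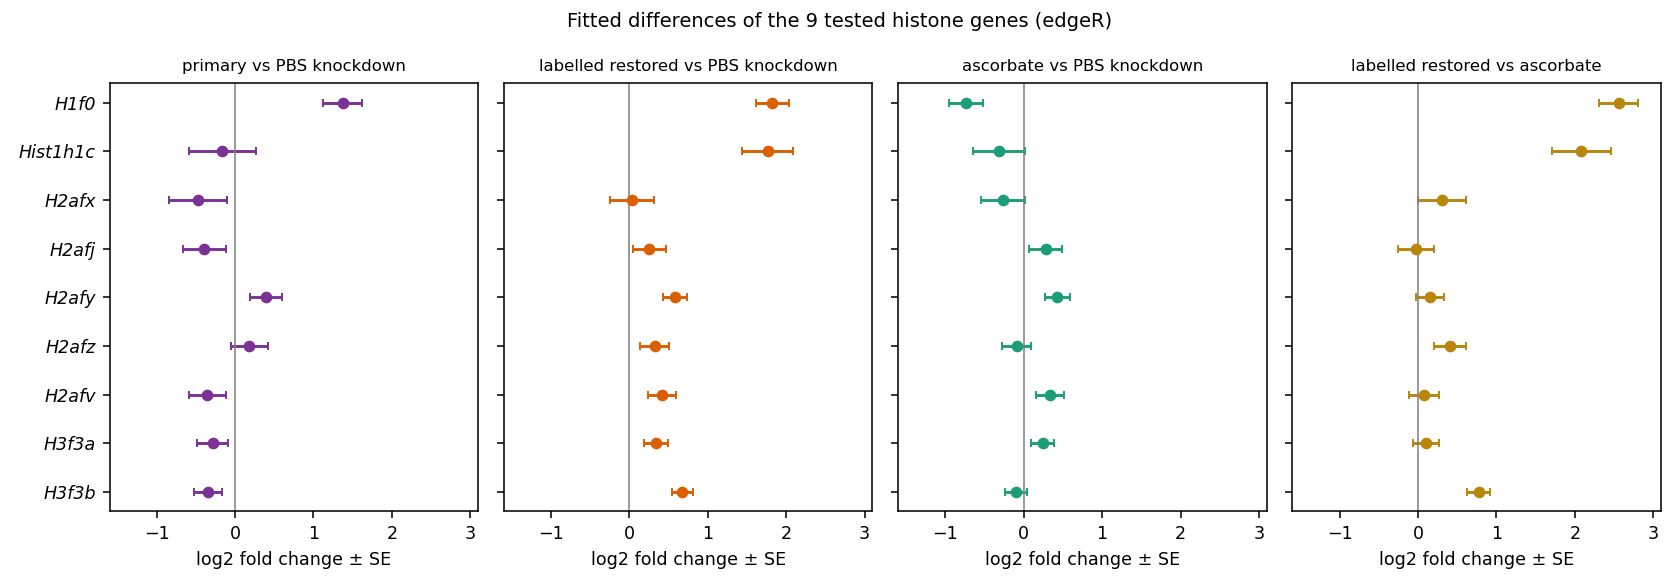
Fitted log2 fold change with its standard error for the 9 tested histone genes in each of 4 comparisons (edgeR). H1f0 was at 1.37 for the primary mouse, 1.82 for labelled restored and -0.73 for ascorbate against PBS knockdown mice, and at 2.56 for labelled restored against ascorbate mice; Hist1h1c followed it in the comparisons with labelled restored mice and was at -0.16 for the primary mouse.

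Other histone variants with their own or partly tailed messages were read from a list, of which 7 of 16 were tested among secondary mice. All 7 were positive between labelled restored and PBS knockdown mice (median 0.45) and between labelled restored and ascorbate mice (median 0.61), and 0 of 7 passed in any secondary comparison in edgeR. Hist1h2bc, a clustered H2B gene, had 46.5 and 48.6 CPM in labelled restored mice, 22.9 and 19.1 CPM in ascorbate mice, 24.5 CPM in mouse 12 and 20.2, 28.3 and 20.6 CPM in PBS knockdown mice. Cenpa, the centromeric H3 variant, had 147 and 141 CPM in labelled restored mice, 115 and 113 CPM in ascorbate mice, 95.4 CPM in mouse 12 and 93.2, 98.5 and 94.1 CPM in PBS knockdown mice. Both were highest in labelled restored mice. The 69 clustered histone genes other than Hist1h1c summed to 181 and 152 CPM in labelled restored mice, 108 and 89.3 CPM in ascorbate mice, 147 CPM in mouse 12, and 98.6, 118 and 110 CPM in PBS knockdown mice. Their sum was high in labelled restored mice and in mouse 12.

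Among genes that place, read or process these histones, Eya3 was the 1 that passed between ascorbate and PBS knockdown mice. Of 9 H3.3 chaperone genes 0 passed between ascorbate and PBS knockdown mice in edgeR (3 positive, 6 negative, median -0.17), and Atrx had the smallest p, with a log2 fold change of -0.61 (edgeR adjusted p 0.159). Of 14 H2A.Z exchange genes 0 passed (5 positive, 9 negative, median -0.10), and Actr6, a SRCAP complex subunit, had -0.86 (log2, edgeR adjusted p 0.0693). Of 10 tested genes that act with H2A.X at DNA breaks, 1 fell (1.77% of all genes did) and all 10 were negative, with a median of -0.58. Of all genes 49.0% were positive in this comparison, and differences ran with gene length (Spearman's rho across genes -0.24), whose part in this list was not tested. The one that fell was Eya3, a phosphatase that acts on H2A.X, at -0.78 (log2, SE 0.173, edgeR adjusted p 0.0473). The call was lost (0 of 10) when any 1 ascorbate or PBS knockdown mouse was left out and with limma voom, whereas DESeq2 called 5 of the 10, against 11.3% of all genes. Mdc1, which binds H2A.X phosphorylated around DNA breaks, had -0.84 (log2, SE 0.194, edgeR adjusted p 0.0513). In labelled restored against PBS knockdown mice these 10 were also all negative (median -0.815), though none was called, and there the correlation with length was -0.402. Of 12 general histone chaperones 0 passed for ascorbate (median 0.14), and of 10 histone message processing genes 0 passed (median -0.32), with Cstf2 at -0.94 (log2, edgeR adjusted p 0.0785).

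Genes of the cell cycle were read from 2 lists. Of 25 proliferation genes 0 passed between ascorbate and PBS knockdown mice in edgeR, with 5 positive and 20 negative (median -0.27), and the S-phase cyclin Ccne2 differed by -0.999 (log2, edgeR adjusted p 0.0868). For labelled restored against PBS knockdown mice 3 of 25 were positive and 22 negative (median -0.37), with 0 called. Summed proliferation genes reached 6559 and 4324 CPM in labelled restored mice, 5807 and 7474 CPM in ascorbate mice, 8687 CPM in mouse 12 and 8108, 7718 and 7099 CPM in PBS knockdown mice. Mouse 23 had the lowest sum and mouse 12 the highest, and H1f0 was high in both. The part of the cell cycle in the H1f0 levels was not tested. Of 18 genes of quiescence and cell cycle exit, 3 rose in ascorbate mice, against 1.09% of all genes: Ccng2, an atypical cyclin (1.72, SE 0.192, edgeR adjusted p 0.0103), Cdkn1b, the p27 cyclin-dependent kinase inhibitor (0.89, SE 0.177, edgeR adjusted p 0.0392), and Mxi1, a MYC antagonist (0.70, SE 0.154, edgeR adjusted p 0.0459), all as log2 fold changes. The number of the 18 genes called was 0 without mouse 28 or without mouse 30, and 1 when any 1 PBS knockdown mouse was left out or library totals were the scale. DESeq2 called 5 of the 18, and 11.3% of all genes it tested. H1f0 was lowest in these same ascorbate libraries.

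Markers of other cells were read from lists. The 11 macrophage markers summed to 51.0 and 15.6 CPM in labelled restored mice, 41.4 and 45.2 CPM in ascorbate mice, 77.0 CPM in mouse 12, and 128, 106 and 124 CPM in PBS knockdown mice, with none at 0, and 3 of them (Vcam1, Mertk and Mrc1) fell in ascorbate mice, against 1.77% of all genes. The 6 mast cell and basophil markers summed to 1078 and 1328 CPM in labelled restored mice, 748 and 1010 CPM in ascorbate mice, 1338 CPM in mouse 12, and 560, 431 and 583 CPM in PBS knockdown mice, with Mcpt8 at 0 in mouse 16 and 0 of 6 called in any comparison in edgeR. This sum was high in the 3 libraries where H1f0 was high, and raised in the ascorbate libraries where H1f0 was lowest. The 9 erythroid markers measured summed to 10910 and 7286 CPM in labelled restored mice, 10060 and 5345 CPM in ascorbate mice, 4055 CPM in mouse 12, and 6739, 12400 and 5063 CPM in PBS knockdown mice, so the secondary groups overlapped in this sum. Hbb-bs gave most of it in every library. Against PBS knockdown mice 7 of the 9 were negative and 2 positive, for labelled restored (median -0.52) and for ascorbate mice (median -0.41), with 0 called in edgeR. The 9 neutrophil markers summed to 13.8 and 19.2 CPM in labelled restored mice, 14.6 and 20.4 CPM in ascorbate mice, 50.1 CPM in mouse 12, and 2.30, 13.0 and 3.94 CPM in PBS knockdown mice. PBS knockdown mice were lowest, with 4 of the 9 at 0 in mouse 16 and 2 at 0 in mouse 19, and 1 marker (Prtn3) rose in ascorbate mice, against 1.09% of all genes. The 6 B cell markers summed to 26.2 and 12.0 CPM in labelled restored mice, 11.3 and 20.6 CPM in ascorbate mice, 80.9 CPM in mouse 12, and 26.8, 24.8 and 27.0 CPM in PBS knockdown mice, with mouse 12 alone high. Mitochondrial share was 9.49% and 14.5% in labelled restored mice, 17.1% and 9.73% in ascorbate mice, 5.16% in mouse 12 and 9.09% to 11.4% in PBS knockdown mice. Differences between libraries also ran with gene length: across genes the correlation of log2 fold change with length was -0.402 (Spearman) for labelled restored and -0.24 for ascorbate against PBS knockdown mice. For mouse 12 it was 0.362. Within the PBS knockdown group it varied as well: against the group mean it was 0.44 in mouse 16, -0.40 in mouse 17 and -0.093 in mouse 19. The part of cell mixture, mitochondrial share and length in the histone differences was not tested, though an alternative fit carried a length offset. Against PBS knockdown mice, that fit gave H1f0 log2 fold changes of 1.68 for labelled restored mice, -0.80 for ascorbate mice and 1.49 for mouse 12. The main fit gave 1.82, -0.73 and 1.37. The length offset also gave 2.48 (log2) for H1f0 and -0.025 for H2afv between labelled restored and ascorbate mice. For Hist1h1c between mouse 12 and PBS knockdown mice it gave 0.034.

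The genes whose levels most resembled H1f0 over the 8 libraries were ranked among 1080 variable genes by Pearson's r of log2(CPM + 1). Itgb7, an integrin subunit, came first (r = 0.946, Spearman's rho = 0.881), followed by Nagk (r = 0.912, rho = 0.952), an N-acetylglucosamine kinase, and Gsr (r = 0.903, rho = 0.881), glutathione reductase. Adra2a (r = 0.873, rho = 0.905), Ddc (r = 0.842, rho = 0.762) and Hist1h2bc (r = 0.834, rho = 0.905) completed the 6. Without mice 21 and 23, the libraries farthest from the median of H1f0, r over 6 libraries was 0.87 for Itgb7, 0.823 for Nagk, 0.816 for Gsr, 0.897 for Adra2a, 0.763 for Ddc and 0.491 for Hist1h2bc. Itgb7 had 158 and 198 CPM in labelled restored mice, 89.4 and 66.1 CPM in ascorbate mice, 120 CPM in mouse 12, and 86.7, 88.7 and 93.3 CPM in PBS knockdown mice. Like H1f0, it was high in labelled restored mice and in mouse 12. Within the histone set, r with H1f0 was 0.798 for Hist1h1c, 0.712 for H2afz, 0.626 for H3f3b and 0.482 for H2afy, and between -0.094 and 0.030 for H3f3a, H2afv, H2afx and H2afj. The libraries fall into 3 with high and 5 with low H1f0, and these values depend in part on that split. Hist1h2bc did not share it, with 24.5 CPM in mouse 12 and 28.3 CPM in PBS knockdown mouse 17. Within the 5, Nagk and Adra2a were lower in both ascorbate mice than in all PBS knockdown mice. Itgb7, Gsr, Ddc and Hist1h2bc overlapped there.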

How the data were processed

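Raw counts, whole numbers by gene symbol without normalization, were deposited by the authors for 8 poly(A) RNA libraries, together with FPKM values of the same libraries. STAR, featureCounts and DESeq2 with mm10 (GRCm38) were used, per the submitters' processing notes, and versions and strand setting are not given in the sources used here. Dividing counts by the authors' FPKM gave gene lengths that came within 1 base of GENCODE vM21 for 8 of 9 tested histone genes, H1f0 being the exception. Coordinates come from GENCODE vM21 and promoters from RefSeq (GRCm38.p6).

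Counts were tested with edgeR 4.0.16 (R 4.3.3; robust quasi-likelihood test, TMM, filterByExpr with a minimum count of 10, Benjamini-Hochberg adjusted p under 0.05 over all genes tested). Of the comparisons, 3 came from 1 fit of the 7 secondary libraries and the primary comparison from a fit of all 8 libraries, in which mouse 12 takes its spread from the replicated groups. An exact permutation test of ranks, with 2 against 3 libraries, cannot give a two-sided p under 0.2 and was not used. Poisson intervals and the 3-count limit cover counting error only. The scripts were tested on simulated data. Alternatives were other scaling factors, no filter, a length offset, other sets of libraries, DESeq2 1.42.0, limma 3.58.1 (voom, and log2(FPKM + 0.1 or 1)) and leaving out each library. Named genes were the 10 histone genes, Tet2, up to 3 genes of each list with the smallest p for ascorbate plus any that passed, and the 6 genes most like H1f0. Hist1h2bc, Cenpa and some marker genes were named after their values were seen. The histone genes and lists were chosen with earlier results of these data known, and the list of 70 clustered histone symbols was added after the files were seen.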

Additional observations from a re-analysis of the deposited data

How the results depend on the processing

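No paired analysis was possible because the groups share no replicate numbers. The log2 fold changes of H1f0 kept their direction under every alternative run. Genes called between ascorbate and PBS knockdown mice numbered 347, against 1498 with no filter on low counts, 855 with only the groups compared, 1266 with DESeq2, 152 with limma voom and 222 with limma on log2(FPKM + 1), and 2 to 796 without 1 library. Histone genes called there numbered 0, against 1 (H1f0) with no filter, with only the groups compared and with DESeq2, and 0 to 1 without 1 library. H1f0 itself then had log2 fold changes of -0.75, -0.72 and -0.73, and -0.83 to -0.67 without 1 library. Of all genes, 6.59% were called with no filter, 7.22% with only the groups compared and 11.3% with DESeq2. Between labelled restored and PBS knockdown mice 0 genes were called, against 367 with DESeq2 size factors, 345 with upper quartile factors, 2207 with no filter, 1877 with DESeq2 and 0 to 1692 without 1 library; 3, 3, 4 and 4 of 9 histone genes were among them, where 3.02%, 2.84%, 9.71% and 16.7% of all genes were called, and 0 to 3 without 1 library, in the comparison that chose H1f0. H1f0 was at 1.42 to 2.14 there without 1 library. Between labelled restored and ascorbate mice 1 gene was called, against 582 with no filter, 0 with only the groups compared, 3 with all 8 libraries, 431 with DESeq2, 3 with limma on log2(FPKM + 1) and 0 to 5 without 1 library. Of histone genes, 1 was called, against 3 with no filter, 0 with only the groups compared and 3 with DESeq2. Those fits called 2.56%, 0% and 3.98% of all genes. Leaving out 1 library could lose the H1f0 call, and put H1f0 at 2.15 to 2.87. For primary mouse 12, 15 genes were called, against 467 with no filter, 231 with DESeq2, 87 with limma voom and 6 to 45 without 1 library. Among them were 0 histone genes, and 1 (H1f0) with no filter and with DESeq2, where 1.99% and 1.93% of all genes were called. H1f0 was then at log2 fold changes of 1.40 and 1.39, against 1.31 to 1.44 without 1 library. Library totals alone moved the median of all genes to -0.12 (log2) for ascorbate, and to 0.132 for labelled restored against ascorbate mice, where upper quartile factors gave 0.108. Of the 6 genes most like H1f0, 3 stayed when only the 7 secondary libraries were used.

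Small differences changed sign. Labelled restored against PBS knockdown mice gave -0.56 to 0.46 for H2afx without 1 library. Ascorbate against PBS knockdown mice gave -0.85 to 0.077 for Hist1h1c and -0.36 to 0.14 for H2afz without 1 library. Labelled restored against ascorbate mice gave -0.30 to 0.72 for H2afx, -0.10 to 0.030 for H2afj, -0.16 to 0.34 for H2afv and -0.0050 to 0.33 for H2afy without 1 library, 0.091 and 0.063 for H2afj with library totals and upper quartile factors, and -0.025 for H2afv with a length offset. Primary mouse 12 gave -0.33 to 0.12 for Hist1h1c without 1 PBS knockdown library and 0.034 with a length offset. The cause was not tested. Groups of 2 and 3 mice and 1 primary mouse limit every comparison.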
